A study of Mus musculus with 6 samples.

Results

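The small leucine-rich proteoglycans are a family of secreted matrix proteins, and 10 of their genes (Dcn, Bgn, Aspn, Lum, Fmod, Prelp, Kera, Omd, Ogn and Epyc) were followed here in mouse calvarial osteoblasts. The genes were taken by symbol, and all 10 were found among the 27179 gene IDs of the count table and passed its filter on low counts, which left 13505 genes for testing. RNA was sequenced from cells of the skull roof of C57Bl/6J pups that were 5 days old. In both groups, collagenase-released cells were sorted by flow cytometry for a GFP transgene controlled by Osteocalcin-Cre, a recombinase driven by the promoter of a late osteoblast gene. The knockout group held 3 libraries from conditional knockouts of Cdc73, also named Hrpt2, whose titles read Flox, and the wildtype group held 3 libraries. Parafibromin, the product of Cdc73, belongs to the Paf1 complex, which travels with RNA polymerase II. The sort is described alike for both groups, so wildtype pups would carry the GFP transgene and the recombinase too, although their genotype label names neither. The labels do not say whether each library came from 1 animal or a pool. The p-values therefore gauge only how far these libraries differ among themselves, and part of that may be technical.

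Each member has a core of leucine-rich repeats, and many carry chains of chondroitin, dermatan or keratan sulfate. In connective tissue they bind collagen fibrils and limit how fibrils grow and fuse, and several also hold growth factors of the TGF-beta and BMP groups in the matrix. Biglycan, the product of Bgn, is among the abundant proteoglycans of bone, and mice that lack it gain less bone. The genes lie mostly in clusters. In the RefSeq annotation of GRCm38.p6, the assembly that mm10 stands for, Dcn (gene ID 13179, chr10:97479500-97518163), Lum (17022, chr10:97565501-97572703), Kera (16545, chr10:97606962-97613688) and Epyc (13516, chr10:97644068-97681908) follow each other on the plus strand. Aspn (66695, chr13:49544443-49567565), Omd (27047, chr13:49582462-49592612) and Ogn (18295, chr13:49608015-49624501) do the same beside the related gene Ecm2. Prelp (116847, chr1:133910304-133930102, minus strand) and Fmod (14264, chr1:134037254-134048280, plus strand) lie 107.2 kb apart, and Bgn (12111, chrX:73483601-73495936, plus strand) stands alone. Reads were counted over whole genes, so no value below refers to a single exon.

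The 250 bases before the transcript start are shown for Epyc, Bgn and Ogn. Epyc and Bgn were the 2 members whose scaled levels in all knockout libraries exceeded those in all wildtype libraries. The same was true of 10.6% of all genes tested. For Ogn, the share of the family was higher in that way. The sequences come from RefSeq (GRCm38.p6), run 5′ to 3′ on the plus strand and end at the base before the start. Capitals mark matches, on either strand, to 4 motifs. The TATA box was searched as TATAAA. The core that Runx factors bind was searched as TGTGGT. The site of the AP-1 factors, which contain Fos and Jun, was searched as TGACTCA. The core that SOX factors bind, among them the cartilage regulator Sox9, was searched as AACAAT.
Epyc, chr10:97643818-97644067: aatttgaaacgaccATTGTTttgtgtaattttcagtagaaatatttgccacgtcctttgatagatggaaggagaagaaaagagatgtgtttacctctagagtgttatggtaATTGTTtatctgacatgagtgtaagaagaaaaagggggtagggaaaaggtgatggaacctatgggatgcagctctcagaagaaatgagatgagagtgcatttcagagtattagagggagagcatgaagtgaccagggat
Bgn, chrX:73483351-73483600: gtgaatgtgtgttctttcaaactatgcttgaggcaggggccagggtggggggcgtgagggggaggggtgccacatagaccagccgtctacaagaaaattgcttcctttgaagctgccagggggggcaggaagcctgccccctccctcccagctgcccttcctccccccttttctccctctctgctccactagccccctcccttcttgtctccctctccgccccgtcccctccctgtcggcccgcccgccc
Ogn, chr13:49607765-49608014: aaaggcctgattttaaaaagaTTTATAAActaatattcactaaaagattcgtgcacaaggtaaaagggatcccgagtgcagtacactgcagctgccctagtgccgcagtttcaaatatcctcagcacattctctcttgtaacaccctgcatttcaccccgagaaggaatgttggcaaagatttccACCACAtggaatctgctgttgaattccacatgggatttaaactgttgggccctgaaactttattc
The Epyc window held ATTGTT, the reverse complement of the SOX letters, beginning 236 and 139 bases before the start. The Ogn window held ACCACA, the reverse complement of the Runx letters, beginning 65 bases before the start, and overlapping matches to the TATA box letters on both strands, beginning 229 and 227 bases before it. The Bgn window held none of the 4 motifs and was 64.4% G or C, against 39.2% for Epyc and 42.0% for Ogn. Of all 32851 RefSeq windows of this length, 9.42% held the SOX letters, 14.0% the Runx letters, 12.4% the TATA box letters and 4.46% the AP-1 letters. The median of all windows was 52.4% G or C, and the window of Aspn stood at 30.0%. Windows of equal G or C content were not compared, so these shares carry no test of the members. The promoter table held 8 of the 10 members, and 6 of their windows contained no annotated exon. Of those 6, 2 held the SOX letters (Aspn and Epyc), 2 the TATA box letters (Aspn and Ogn), 1 the Runx letters and 0 the AP-1 letters.

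Library totals ran from 14837272 to 16380767 counts in the knockout group and from 13591925 to 20993962 in the wildtype group. The libraries held the markers of their label. The summed level of 12 osteoblast markers was 237287.7 to 351239.1 CPM in knockout and 281518.5 to 307469.3 CPM in wildtype libraries, where CPM are counts scaled to a common library total, here after TMM normalization between libraries. Col1a1 and Col1a2 dominate that sum, and 10 of the 12 markers had a negative fold change (median -0.35). Of the 12, 2 were lower in knockout without overlap, against 9.81% of all genes tested. These were Sp7 (-0.62 ± 0.19) and Dlx5 (-0.34 ± 0.16), both osteoblast transcription factor genes. Runx2, another such gene of the list, overlapped between the groups (-0.16 ± 0.24). Cartilage markers were present as well. All 14 of the chondrocyte list had a positive fold change, none was at 0 in any library, and their sum was 15258.0 to 30010.5 CPM in knockout against 4882.2 to 12597.2 CPM in wildtype libraries. Wildtype 1 stood apart from the other wildtype libraries in this list, at 12597.2 CPM against 4882.2 and 5695.2 CPM. Sums of 10 macrophage markers (137.4 to 325.4 against 80.25 to 116.9 CPM) and of 8 endothelial markers (119.9 to 204.9 against 42.69 to 117.9 CPM) also lay higher in the knockout libraries. In such bulk samples, fewer cells of a type and less RNA per cell cannot be told apart. Cdc73 did not check the labels, at 13.98 to 14.73 CPM in knockout and 12.8 to 21.73 CPM in wildtype libraries (edgeR adjusted p = 0.428). Which exons the deletion removes is not given in the sources used here, and reads of any exons left in place are counted. In what follows, knockout means the libraries labelled so.

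As a family, these genes took 0.582%, 0.514% and 0.600% of all counts in knockout 1, 2 and 3, against 0.596%, 0.619% and 0.715% in wildtype 1, 2 and 3. Their summed level after TMM scaling averaged 6135 ± 1103 CPM in knockout and 5990 ± 604 CPM in wildtype libraries (SD, n = 3 each), a log2 difference of 0.02. The groups overlapped, since knockout 3 (7385 CPM) and wildtype 3 (6651 CPM) were highest and knockout 2 (5301 CPM) and wildtype 1 (5467 CPM) lowest. An exact two-sided permutation test over the libraries gave p = 0.9, where the smallest p of 3 against 3 libraries is 0.1. The sign was negative under upper-quartile scaling and under scaling by library size alone, at -0.01 and -0.18.

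Levels of different members were compared per kilobase of exon. On that scale Bgn (725.7 CPM per kilobase over all 6 libraries), Dcn (712.4) and Lum (657.8) formed a group at the top whose ranges overlapped from each to the next in both groups. Aspn (154.1) and Fmod (137.2) came next, then Ogn (96.2) and Omd (89.0). Prelp (17.3), Epyc (8.47) and Kera (1.98) stood at the bottom, each of these separate from its neighbour in both groups. The order spanned 366-fold from Bgn to Kera. It used the exons of curated transcripts, and with the exons of every GENCODE transcript the values at the top became 657.8 for Lum, 287.8 for Bgn and 236.6 for Dcn, while the order of the other 7 stayed as it was.

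**Figure D1:**
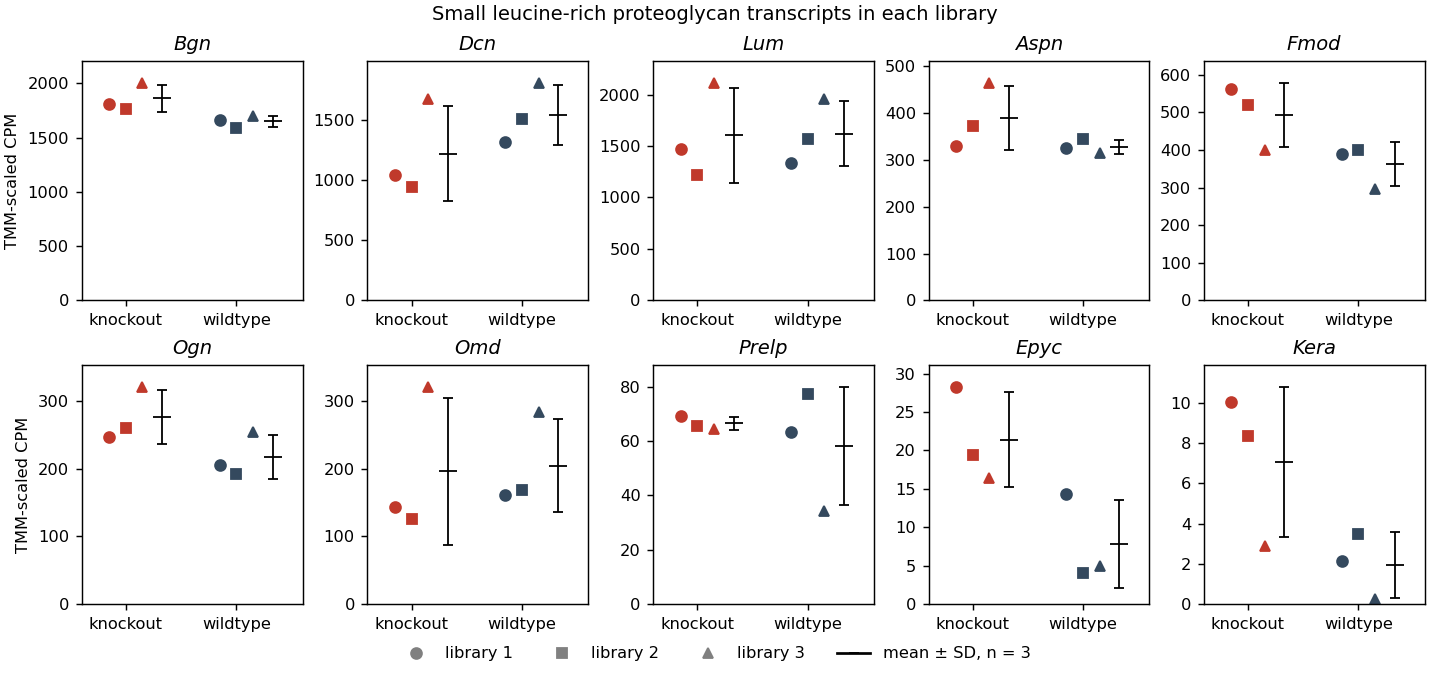
TMM-scaled CPM of the 10 members (1 panel each, vertical axes from 0, ordered by level per kilobase) in 3 knockout and 3 wildtype libraries, with the mean ± SD of each group as a black bar. Bgn varied little (1591 to 2005 CPM), Omd and Dcn were highest in library 3 of either group, and Epyc was above 16 CPM in every knockout and below 15 CPM in every wildtype library.

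Over all 13505 genes, edgeR's quasi-likelihood test called 0 genes at an adjusted p under 0.05 (0.0%), so none of the 10 members passed. At an unadjusted p under 0.05 the test gave 1974 genes, which is 14.6% of those tested, and DESeq2 called 248 genes after adjustment (1.84%). Among the members, Epyc and Kera had an unadjusted p under 0.05, both higher in knockout, where the same was true of 8.26% of all genes, and 0 members were lower, where it was true of 6.35%. After TMM scaling, the groups did not overlap for 2 members, Bgn and Epyc, both higher in knockout. For 0 members they were lower without overlap, and the shares of all genes were 10.6% and 9.81%. The fold change was positive for 7 of 10 members and their median was 0.22 on the log2 scale, while the median of all genes tested was -0.006.

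**Figure D2:**
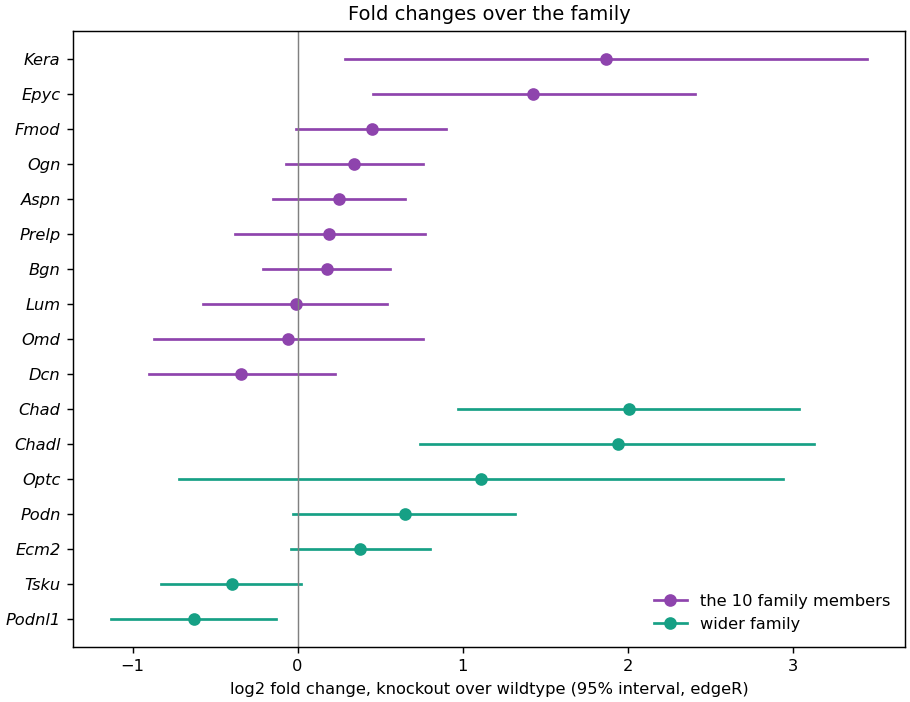
Log2 fold change of knockout over wildtype with its 95% interval from edgeR for the 10 members (purple) and for 7 tested genes of the wider family (green), sorted by size. The intervals of Kera, Epyc, Chad, Chadl and Podnl1 leave out 0 before any adjustment, and no gene shown passed the adjusted threshold.

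Dcn, Bgn and Aspn form the class of members that resemble decorin. Decorin, the product of Dcn, coats collagen fibrils and binds TGF-beta. Its gene measured 1042, 943 and 1676 CPM in knockout 1, 2 and 3, against 1313, 1505 and 1808 CPM in wildtype 1, 2 and 3. Knockout 1 and 2 were the lowest libraries, but after TMM scaling knockout 3 lay within the wildtype range. Scaled by library size alone, knockout 3 (20376 of 14947674 filtered counts) lay below wildtype 1 (30042 of 20973753), the lowest wildtype library on that scale. The log2 fold change of Dcn was then -0.57 (edgeR adjusted p = 0.173), where the median of all genes was -0.21. With TMM scaling the log2 fold change was -0.34 ± 0.25 (SE; 95% interval -0.90 to 0.23; edgeR adjusted p = 0.502). Leaving out knockout 3 gave -0.65, leaving out knockout 2 gave -0.18, and setting wildtype 1 alone against the knockouts gave -0.11. Bgn measured 1814, 1767 and 2005 CPM in knockout libraries and 1659, 1591 and 1697 CPM in wildtype libraries. The groups did not overlap, yet the difference was small, at 1862 ± 126 CPM in knockout and 1649 ± 53.9 CPM in wildtype libraries (log2 fold change 0.18 ± 0.17, edgeR adjusted p = 0.605). Its sign turned to -0.03 when scaled by library size alone, a scaling that moved the median of all genes to -0.21. On that scale the groups overlapped, with knockout 3 (24368 of 14947674 filtered counts) below wildtype 3 (28428 of 15557637). Knockout 1 (30231 of 16357807) lay above it. The TMM factor was 0.813 in knockout 3 and 0.971 to 1.091 in the other libraries. Bgn was also the steadiest member of the wildtype group, with a coefficient of variation of 6.76% among knockout and 3.27% among wildtype libraries. Aspn encodes asporin, which binds collagen and TGF-beta and bears a run of aspartates in place of the usual sugar chain. It measured 330, 374 and 465 CPM in knockout and 325, 344 and 315 CPM in wildtype libraries, a log2 fold change of 0.25 ± 0.18 (95% interval -0.15 to 0.65; edgeR adjusted p = 0.491). Without knockout 3, its highest library, the value was 0.08.

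Lum, Fmod, Prelp, Kera and Omd form the class that typically carries keratan sulfate or tyrosine sulfate. Lumican, encoded by Lum, organises collagen fibrils in cornea, tendon and bone. Lum measured 1473, 1220 and 2114 CPM in knockout and 1333, 1565 and 1956 CPM in wildtype libraries. Both groups spanned nearly the same range, with a log2 fold change of -0.01 ± 0.25 (95% interval -0.57 to 0.54; edgeR adjusted p = 0.984). Omd encodes osteomodulin, also called osteoadherin, a member concentrated in bone that binds hydroxyapatite and cells. It measured 142.6, 125.2 and 321.0 CPM in knockout and 160.6, 168.2 and 283.6 CPM in wildtype libraries. Library 3 of either group was high and the others low, and the fold change was -0.06 ± 0.36 with a wide interval of -0.87 to 0.76 (edgeR adjusted p = 0.949). Leaving out knockout 3 gave -0.62 and leaving out wildtype 3 gave 0.25, so the sign of Omd rested on single libraries.

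Fibromodulin, the product of Fmod, shares a collagen site with lumican and is strong in tendon and cartilage. Fmod measured 563, 519 and 399 CPM in knockout and 390.5, 400.6 and 296 CPM in wildtype libraries. Knockout 3 fell just under wildtype 2, the only overlap, and the log2 fold change was 0.45 ± 0.20 (95% interval -0.01 to 0.90; edgeR adjusted p = 0.345). It stayed positive, from 0.26 to 0.56, in all 15 alternatives. Prelp encodes prolargin, which links collagen to heparan sulfate chains of basement membranes and is found in cartilage. It measured 69.4, 65.7 and 64.6 CPM in knockout and 63.3, 77.2 and 34.5 CPM in wildtype libraries. Wildtype 3 alone was low, and the fold change of 0.19 ± 0.26 (edgeR adjusted p = 0.715) became -0.09 without it and -0.01 with library size alone. Kera encodes keratocan, best known from the cornea and also made by mouse osteoblasts. It had 167, 120 and 35 counts in knockout and 49, 50 and 4 counts in wildtype libraries, or 10.02, 8.34 and 2.88 CPM against 2.14, 3.48 and 0.239 CPM. Knockout 1 and 2 stood above the rest, knockout 3 lay under wildtype 2, and wildtype 3 was far below all others. The log2 fold change was 1.87 ± 0.70 (95% interval 0.29 to 3.45; unadjusted p = 0.0250, adjusted p = 0.307 in edgeR) and ran from 1.35 without wildtype 3 to 2.49 without wildtype 2. With the replicate number as a block, a fit that called 1.75% of all genes, Kera and Epyc were the members called. The numbers were not taken as pairs, since deviations of same-numbered libraries correlated at only 0.12, -0.07 and 0.22.

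Ogn and Epyc belong to the class of osteoglycin and epiphycan. Osteoglycin, also called mimecan, is a bone and connective tissue member first isolated from bone matrix. Ogn measured 247, 260 and 322 CPM in knockout and 205, 193 and 255 CPM in wildtype libraries. Knockout 1 lay just under wildtype 3, and the log2 fold change was 0.34 ± 0.18 (95% interval -0.07 to 0.76; edgeR adjusted p = 0.389). Epiphycan, the product of Epyc, is a cartilage proteoglycan of growing bone ends. Epyc had 472, 280 and 199 counts in knockout and 329, 59 and 83 counts in wildtype libraries. Scaled, these were 28.3, 19.5 and 16.4 CPM against 14.4, 4.10 and 4.96 CPM. The groups did not overlap after TMM scaling, and wildtype 1 came close to knockout 3. By library size alone, knockout 3 (199 of 14947674 filtered counts) lay below wildtype 1 (329 of 20973753). The log2 fold change was 1.43 ± 0.44 (95% interval 0.46 to 2.41; unadjusted p = 0.00864, adjusted p = 0.277 in edgeR). DESeq2 called it (adjusted p = 0.0410), and so did edgeR without wildtype 1 (2.22, adjusted p = 0.0301), where 2.96% of genes were called. Against wildtype 1 alone the value was 0.57. The order of the libraries by Epyc was the order by Col2a1, the main collagen of cartilage, which measured 15626.6, 8058.6 and 4958.2 CPM in knockout and 4288.2, 518.3 and 606.3 CPM in wildtype libraries. The part of cartilage transcript in the difference of Epyc was not tested.

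**Figure D3:**
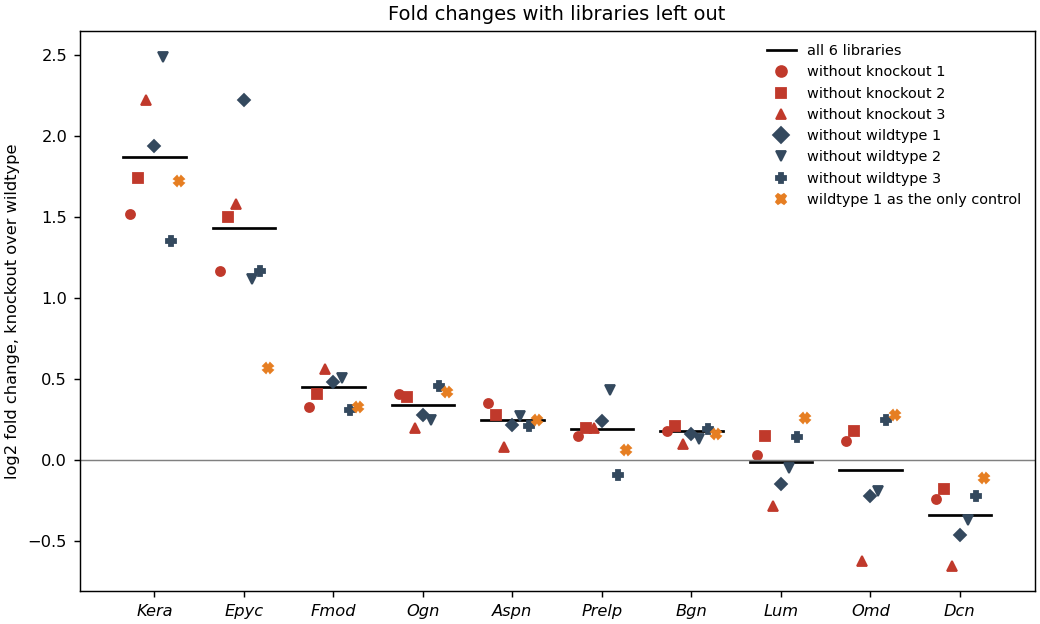
Log2 fold change of knockout over wildtype for each member with all 6 libraries (black line), with 1 library left out (red for a knockout and dark blue for a wildtype library) and with wildtype 1 as the only control (orange). Epyc ran from 0.57 to 2.22 and Kera from 1.35 to 2.49 on the positive side, while Lum, Omd and Prelp crossed 0.

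**Figure D4:**
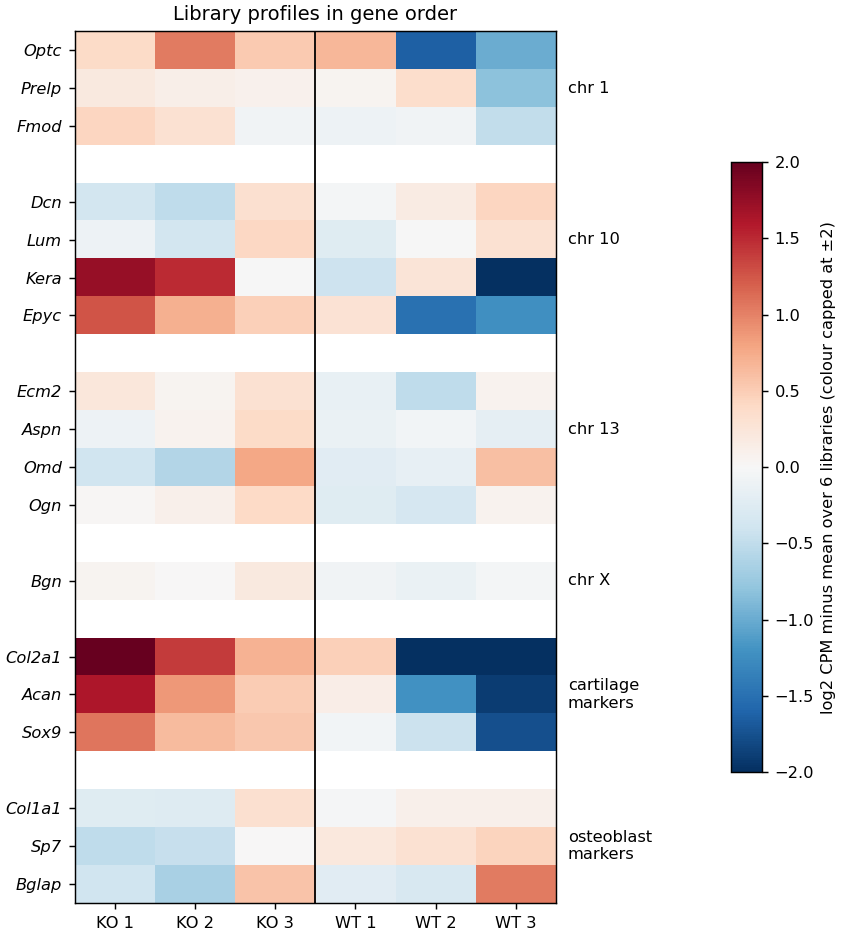
Log2 CPM of each gene minus its mean over the 6 libraries (red above, blue below, colour capped at 2 either way), with family genes in chromosome order and 3 cartilage and 3 osteoblast markers beneath. Dcn, Lum and Omd were above their mean in knockout 3 and wildtype 3, while Kera and Epyc, next to Lum on chromosome 10, were highest in knockout 1.

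Some neighbours on a chromosome had close profiles and others did not. Dcn and Lum, 47.3 kb apart, were close, with a root mean square difference of 0.18 between their log2 profiles, each centred over the 6 libraries. Lum and Kera are 34.3 kb apart and Kera and Epyc 30.4 kb, yet Kera spanned 4.81 and Epyc 2.75 log2 units over the libraries, against 0.94 for Dcn and 0.79 for Lum. On chromosome 13, Omd lies 14.9 kb from Aspn and 15.4 kb from Ogn. Omd spanned 1.36 log2 units, Aspn 0.56 and Ogn 0.74, and after TMM scaling all 3 were highest in knockout 3. By library size alone, Omd and Ogn were higher in wildtype 3 (4750 and 4264 of 15557637 filtered counts) than in knockout 3 (3902 and 3910 of 14947674). On chromosome 1, Fmod and Prelp, 107.2 kb apart, differed by 0.26, and each was the nearest member to the other. The closest profiles of all 45 pairs of members were those of Bgn and Aspn (0.12), which lie on different chromosomes. Bgn and Ogn (0.15) followed, then Aspn and Ogn (0.17), both on chromosome 13. Bgn spanned only 0.33 log2 units, and profiles with a small range lie near many others. Because these distances follow the same 6 libraries, they describe the members and carry no test.

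Within a library, the shares of the members do not depend on scaling between libraries. Per kilobase of exon, Dcn made up 22.3%, 21.8% and 27.2% of the family in knockout 1, 2 and 3, against 28.8%, 30.7% and 32.1% in wildtype 1, 2 and 3. The groups did not overlap, and the mean share was 23.8 ± 2.98% in knockout and 30.6 ± 1.67% in wildtype libraries (SD, n = 3 each). The difference was -6.81 percentage points, with an exact two-sided permutation p = 0.1, the smallest possible. Ogn went the other way, at 3.99%, 4.54% and 3.94% in knockout and 3.40%, 2.98% and 3.42% in wildtype libraries, a difference of 0.889 points at the same exact p of 0.1. Shares in a library trade off against each other, so a lower share of Dcn raises the others. The Ogn difference is therefore not independent of that of Dcn, and the levels of Ogn overlapped between the groups. The remaining 8 members overlapped between the groups, and 2 of 10 is near the share of genes at large whose levels did not overlap, 10.6% higher and 9.81% lower. Bgn held 30.0 ± 3.48% in knockout and 26.5 ± 2.52% in wildtype libraries (exact p = 0.2), and Lum 24.8 ± 2.41% and 25.4 ± 2.19% (exact p = 0.7).

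**Figure D5:**
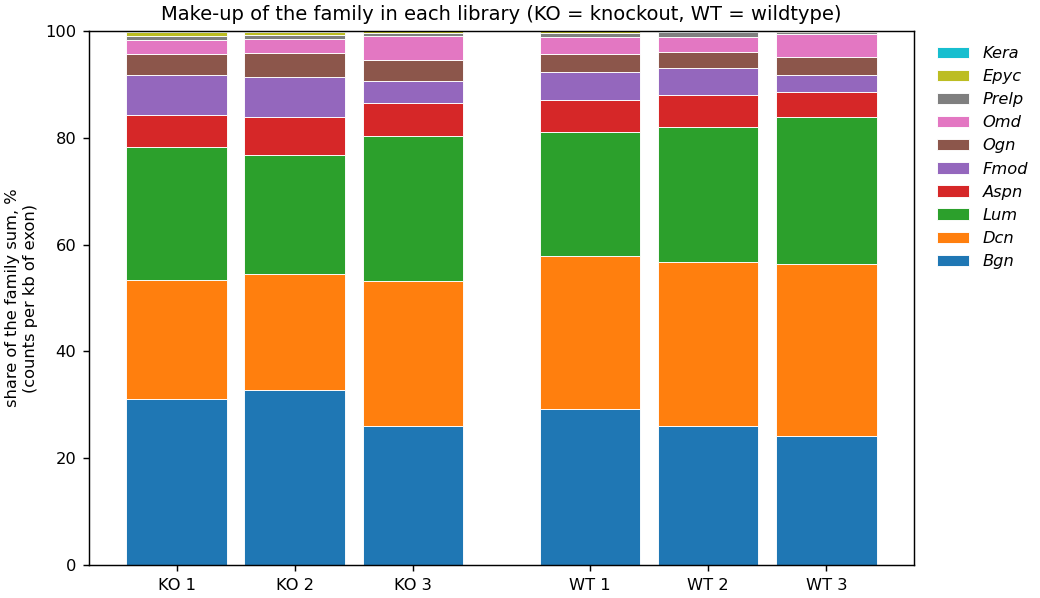
Share of each member in the family sum (counts per kilobase of exon, in percent, bars stacked to 100) for the 3 knockout (KO) and 3 wildtype (WT) libraries. The Dcn segment is between 21.8% and 27.2% in knockout and between 28.8% and 32.1% in wildtype libraries, while Bgn, Dcn and Lum together fill most of every bar.

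Ratios of counts between members are equally free of scaling. For Dcn and its neighbour Lum, there were 0.707, 0.773 and 0.793 counts of Dcn per count of Lum in knockout 1, 2 and 3, against 0.985, 0.961 and 0.924 in wildtype 1, 2 and 3. The means were 0.758 ± 0.0449 in knockout and 0.957 ± 0.0305 in wildtype libraries (SD, n = 3 each), a log2 difference of -0.34. Ratios of Dcn to Aspn (3.09 ± 0.543 in knockout, 4.72 ± 0.906 in wildtype) and of Dcn to Ogn (4.35 ± 0.800 in knockout, 7.10 ± 0.702 in wildtype) were also lower in knockout with no overlap. So were the ratios of Fmod and of Prelp to Epyc. These were 5 of the 45 pairs of members, each with an exact permutation p = 0.1 and an adjusted p = 0.529 over the 45 pairs. Among all pairs of the 13505 tested genes, 21.0% had ratios whose groups did not overlap, so such pairs were no more frequent in the family than among genes at large. Dcn and Lum were singled out after their values were seen.

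Of 8 further genes of the wider family, 7 passed the filter on low counts. Chad encodes chondroadherin and Chadl a related protein, both of cartilage. Chad measured 57.8, 32.2 and 27.8 CPM in knockout and 16.4, 3.76 and 8.84 CPM in wildtype libraries (log2 fold change 2.01 ± 0.46, edgeR adjusted p = 0.273). Chadl measured 74.9, 37.5 and 24.7 CPM in knockout libraries, against 20.6, 10.6 and 4.36 CPM in the wildtype ones (1.94 ± 0.53, adjusted p = 0.273 in edgeR). For both genes the groups did not overlap, as for 12 of the 14 cartilage markers, whose median log2 fold change was 2.13, against 10.6% of all genes with higher levels. The part of cartilage transcript in the difference of Chad and Chadl was not tested. DESeq2, which called 1.84% of all genes, called Chad (adjusted p = 0.000915). Without wildtype 1, where 2.96% of all genes were called, edgeR called both, at 2.61 for Chad (adjusted p = 0.0367) and 2.60 for Chadl (adjusted p = 0.0465). With any other single library left out, edgeR called 0 genes. Against wildtype 1 alone Chad and Chadl stood at 1.26 and 1.14. Chad, Chadl and Podnl1 were named by smallest p on these libraries, which partly sets a call in another fit. Podnl1, the gene of podocan-like 1, measured 16.9, 13.6 and 20.7 CPM in knockout and 19.8, 30.7 and 28.8 CPM in wildtype libraries (-0.63 ± 0.22, edgeR adjusted p = 0.301). Nyx was too low to test, with 1 to 11 counts in a library, and Optc had 1 to 19. With all 6 libraries edgeR called 0 of the 7, and an unadjusted p under 0.05 was reached by 2 with higher and 1 with lower levels in knockout, against 8.26% and 6.35% of all genes.

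Genes that build the sugar chains of these proteins were examined as 3 lists. Of 11 genes for the linker and the supply of sugars and sulfate, an unadjusted p under 0.05 was reached by 5 on the higher side and 0 on the lower, with a median log2 fold change of 0.28. Over all genes the shares were 8.26% on the higher and 6.35% on the lower side, against which each list here is to be read. Slc26a2, the sulfate transporter, measured 35.1 ± 4.16 CPM in knockout and 16.8 ± 6.70 CPM in wildtype libraries (1.06 ± 0.26). Xylt1, a xylosyltransferase that starts the chain, measured 21.9 ± 6.83 and 8.23 ± 5.14 CPM (1.40 ± 0.40), and Slc35d1, a carrier of sugar nucleotides, 8.45 ± 1.38 and 4.48 ± 2.41 CPM (0.90 ± 0.36). Of 16 genes of chondroitin and dermatan sulfate synthesis, 1 on the higher and 1 on the lower side reached it, with a median of 0.02. These were Csgalnact1, which commits the chain to chondroitin (14.5 ± 6.14 CPM in knockout, 4.29 ± 3.96 CPM in wildtype), and the sulfotransferase gene Chst13 (10.1 ± 2.37 and 17.7 ± 7.13 CPM). Chst11, a chondroitin 4-sulfotransferase, measured 108.4 ± 14.1 CPM in knockout and 81.9 ± 17.7 CPM in wildtype libraries (0.40 ± 0.20). It was higher with no overlap, as were 10.6% of all genes. The dermatan-forming epimerases Dse and Dsel had log2 fold changes of 0.29 ± 0.15 and -0.05 ± 0.16. Of 10 genes of keratan sulfate and tyrosine sulfate addition, 2 reached it on the higher side and 0 on the lower (median 0.25), namely B3gnt2, which extends the chain (17.0 ± 3.85 and 8.37 ± 3.20 CPM), and the keratan sulfotransferase Chst1 (4.68 ± 0.752 and 2.25 ± 1.43 CPM). Tpst1, a tyrosine sulfotransferase, measured 36.7 ± 2.91 CPM in knockout and 29.3 ± 2.88 CPM in wildtype libraries (0.33 ± 0.15). None of the 37 genes was called by edgeR with all 6 libraries. DESeq2, which called 1.84% of all genes, called Slc26a2 (adjusted p = 0.0191) and Xylt1 (adjusted p = 0.0323) among those named here. Apart from Dse and Dsel, the named genes were chosen by smallest p on these libraries. A call in another fit is partly set by that choice. Without wildtype 1 edgeR called 2.96% of all genes. Of the same named genes it called Slc26a2 (1.41, adjusted p = 0.0301), Xylt1 (2.04, adjusted p = 0.0301), Slc35d1 (1.42, adjusted p = 0.0451), Csgalnact1 (2.80, adjusted p = 0.0352) and B3gnt2 (1.36, adjusted p = 0.0373). Against wildtype 1 alone these were 0.52, 0.63, 0.22, 0.72 and 0.49. Chondrocytes make much chondroitin sulfate, and their markers stood higher in the same libraries, with a median of 2.13. Their part in these differences was not tested.

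Partners of the family in and around the fibril were examined as well. Of 11 collagens and crosslinking genes, 1 reached an unadjusted p under 0.05 on the higher side (8.26% of all genes), and the median log2 fold change was 0.13. The groups overlapped for all 11, where 10.6% of all genes were higher and 9.81% lower without overlap. The gene under that p was Col14a1, a collagen of the fibril surface, at 222 ± 110 CPM in knockout and 98.5 ± 49.4 CPM in wildtype libraries (1.17 ± 0.43). Lox, the gene of lysyl oxidase, which crosslinks collagen, measured 905.9 ± 154.1 CPM in knockout and 750.3 ± 81.1 CPM in wildtype libraries (0.27 ± 0.19), and the fibril collagen Col5a2 measured 6485 ± 1324 and 5526 ± 1176 CPM (0.23 ± 0.24). Of 18 receptors and bound growth factors, 16 had a positive fold change, and 6 of these but 0 of the others reached an unadjusted p under 0.05 (median 0.34). Over all 13505 genes, 6662 were positive and 8.26% reached it on the higher side. Bmp2, a bone morphogenetic protein, measured 50.9 ± 3.54 CPM in knockout and 32.7 ± 6.80 CPM in wildtype libraries (0.63 ± 0.18). The receptor gene Tgfbr2 measured 107.4 ± 15.0 and 70.8 ± 11.6 CPM (0.60 ± 0.18). Tlr2, an innate immune receptor that biglycan engages, measured 31.3 ± 12.1 and 17.2 ± 0.900 CPM (0.87 ± 0.27). Macrophages also express Tlr2. All 10 macrophage markers were positive, with a median of 1.20, in cells sorted for the osteoblast GFP, and their part in the difference of Tlr2 was not tested. The ligand genes Tgfb1 (-0.01 ± 0.20) and Tgfb3 (0.09 ± 0.15) differed by less than 1 standard error. Tgfb2, the other TGF-beta ligand gene of the list, was higher in knockout. It measured 31.0 ± 2.73 CPM in knockout and 17.6 ± 7.24 CPM in wildtype libraries (0.81 ± 0.29, edgeR adjusted p = 0.302). None of the collagens, receptors or growth factors was called by edgeR.

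Proteases that cut members of the family were all on the positive side. Of 9 genes 8 were tested, 2 reached an unadjusted p under 0.05 on the higher side (median 0.24), against 8.26% of all genes, and 4 were higher without overlap, against 10.6%. Adamts4 and Adamts5, the aggrecanases, measured 53.1 ± 2.08 and 83.6 ± 12.2 CPM in knockout and 31.9 ± 13.6 and 52.4 ± 21.0 CPM in wildtype libraries (0.74 ± 0.29 and 0.67 ± 0.28). Adamts1, another protease of that family, measured 251.2 ± 26.4 CPM in knockout and 132.1 ± 78.9 CPM in wildtype libraries (0.93 ± 0.44), with wildtype 3 at 41.6 CPM. Bmp1, whose product removes the propeptide of biglycan, stood at 0.06 ± 0.18. The edgeR adjusted p was 0.317 or above for all 8 proteases.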

How the data were processed

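RNA from sorted calvarial osteoblasts of neonatal mice was sequenced in 6 libraries. Per the submitters' processing notes, CASAVA 1.7, Subread and featureCounts were used with mm10. The deposited values are raw counts of reads per gene ID, whole numbers with no normalization. Strand use is not given in the sources used here. NCBI RefSeq named 25275 of 27179 IDs and GENCODE M21 another 18. All 15 pairs of libraries differed beyond sampling noise.

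Counts were tested with edgeR 4.0.16 (R 4.3.3): filterByExpr, TMM factors (0.813 to 1.091), a two-sided quasi-likelihood test without covariates, and Benjamini-Hochberg adjustment over 13505 genes at 0.05. Family sums, shares and ratios were compared by exact two-sided permutation. Exon lengths came from GENCODE transcripts matched to curated RefSeq entries. Errors are SD over 3 libraries for levels and SE for fold changes. In simulated counts the fit called 38% of 100 genes changed 2-fold and 85% of 100 genes changed 4-fold, with 10 false calls. Genes that were not called may therefore still differ. Alternatives were 3 other scalings, no filter, a stricter filter (CPM of at least 1 in 3 libraries), DESeq2 1.42.0, limma voom 3.58.1, the replicate number as a block, leaving out each library and wildtype 1 as sole control, which assumes that it varies like the knockouts.

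The members, lists and alternatives were chosen with earlier results of these data known. All members were described, and in each pathway list the 3 genes of smallest p with at least 1 CPM. Dse, Dsel, Tgfb1, Tgfb2, Tgfb3 and Bmp1 were added for their roles after their values were seen, as was the exon length over all transcripts.

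In further marker lists, the fold change was positive for 10 of 14 fibroblast and suture genes (median log2 fold change 0.25), 7 of 7 neutrophil (1.65), 5 of 5 erythroid (1.58), 8 of 8 endothelial (1.29), 4 of 4 tendon (0.29), 1 of 5 muscle (-0.36) and 2 of 6 osteocyte genes (-0.29).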

Additional observations from a re-analysis of the deposited data

How the results depend on the processing

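The signs of Dcn, Aspn, Fmod, Kera, Ogn and Epyc held under all 15 alternatives to the edgeR fit. With library size alone, which moved the median of all genes to -0.21, the log2 fold change became -0.03 for Bgn and -0.01 for Prelp, and the summed level -0.18 (-0.01 under upper-quartile factors). Against wildtype 1 alone, Lum became 0.26 and Omd 0.28. Leaving out 1 library at a time, the log2 fold change ran from -0.28 to 0.15 for Lum, from -0.09 to 0.43 for Prelp, from -0.62 to 0.25 for Omd and from 1.12 to 2.22 for Epyc, and the summed level from -0.12 to 0.12. The share differences ran from -1.71 to 0.702 points for Lum (0.940 without Bgn in the sum), from -0.0713 to 0.187 for Prelp, from -0.887 to 0.204 for Omd and from -8.53 to -5.83 for Dcn. The causes of these turns were not tested.

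Genes called numbered 24 without a filter and 248 with DESeq2 (Epyc at 1.46). They numbered 409 without wildtype 1 and 0 with any other single library left out. Voom called 0, with 1955 at an unadjusted p under 0.05. With the replicate block 236 were called, Epyc at 1.61, Kera at 2.11, Chad at 2.14 and Chadl at 2.04 among them. Same-numbered libraries deviated together in some cases (correlations 0.12, -0.07 and 0.22), and knockout 2 correlated best with wildtype 1 (0.35), so the numbers were not taken as pairs. With 3 libraries a group, the exact tests cannot go below 0.1, and the level of Kera in wildtype 3 rests on only 4 counts.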

Other observations

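For each member, the genes with the nearest library profile were sought among 9412 genes of at least 5 CPM on average. Nearness was the root mean square difference of log2 CPM, each centred on its mean over the 6 libraries. These are descriptions that share the same libraries and carry no test. Epyc was nearest to Hapln1, the gene of a link protein of cartilage matrix (0.12), and almost as near to Stk10 (0.129). The median gene stood at 1.03 from Epyc. Hapln1 measured 277.5, 158.2 and 144.1 CPM in knockout and 111.0, 32.6 and 43.2 CPM in wildtype libraries, the same order of libraries as for Epyc. Kera was nearest to Lif (0.207) and Tnf (0.265), both cytokine genes, where the median gene stood at 1.595. Dcn was nearest to Pltp, a phospholipid transfer protein gene (0.053), and Rab4b (0.059). Lum was nearest to Kazald1 (0.065) and Klhdc4 (0.069). Bgn was nearest to Ptma (0.038) and Cnst (0.048), and Aspn to Nr2f1, a nuclear receptor gene (0.038), and Slc36a4 (0.05). Omd was nearest to ATP8, a mitochondrial gene (0.154), and Car3, a carbonic anhydrase gene (0.172). Fmod was nearest to Gas7 (0.05) and Parp8 (0.051), Prelp to Pkd1 (0.041) and Lins1 (0.065), and Ogn to Plaa (0.074) and Ccpg1 (0.088). Profiles with a small range lie near many genes, so the distances of different members are not comparable with each other.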
